A study of Mus musculus with 6 samples.

Results

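The immunoglobulin variable (V) gene repertoire was described in intestinal adenomas of 2 mouse models of familial polyposis, as 160 V genes of the 218 that the count table holds. These genes are annotated as IG_V_gene in GENCODE M21 and were chosen by their read counts in these same libraries, with a summed estimated count of 50 or more over the 6 libraries, so that their presence is not itself a result. They comprise 77 of 113 V genes of the heavy chain locus (Igh), 80 of 100 of the kappa light chain locus (Igk) and 3 of 3 of the lambda light chain locus (Igl). Of the 58 genes left out, 8 had no count at all, and 2 carry clone names, Gm43218 and Gm42543, on the chromosome of Igk. The 160 genes held 99.3% of all V gene counts. The genes just inside the minimum were Igkv12-89 with a summed count of 51.0, Igkv1-122 with 51.5 and Ighv14-4 with 53.9, and those just outside were Ighv2-4 with 49.5, Ighv1-20 with 44.6 and Ighv1-36 with 43.3.

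The libraries came from excised adenomas of C57BL/6J mice aged 100 to 120 days, 3 of the genotype Apc1322T/+ and 3 of the genotype ApcMin/+. Both alleles truncate Apc, and the Apc1322T protein is the longer one and retains binding sites for β-catenin. Both groups are adenomas, no normal intestine was analysed here, and RNA from several extractions of 1 mouse was typically pooled for a sample. No source used here says whether the 3 libraries of a genotype came from different mice, so the spread between them may be partly technical. The total estimated counts were between 23132461 and 33518324 per library.

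B cells build each immunoglobulin chain by joining 1 V gene to a J segment (and, in the heavy chain, to a D segment between them), and the V gene makes up most of the antigen-binding domain. A plasma cell transcribes its 1 rearranged heavy chain and its 1 light chain at a very high level, so the V gene reads of a bulk intestinal library come mainly from antibody-secreting cells and mirror both how many there are and how many different clones they belong to. In the gut most plasma cells secrete IgA, whose heavy chain constant region is encoded by Igha. In bulk tissue, fewer cells and less RNA per cell cannot be told apart, nor can a single large clone be told apart from many small clones that use the same V gene.

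The V genes of a locus share much of their sequence, which bears on every value for a single gene. The 90 bases at the 3′ end of the transcript are shown for the genes that led a locus in at least 1 library, as GENCODE M21 gives them on GRCm38. Each holds near its end the conserved codons for Tyr, Tyr or Phe, and Cys that precede the third hypervariable loop, here in capitals. They are followed by 6 to 10 bases in the heavy chain genes shown, 23 in the kappa genes and 24 in Iglv1.
Ighv3-6: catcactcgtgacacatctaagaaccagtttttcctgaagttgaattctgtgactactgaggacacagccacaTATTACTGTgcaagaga
Ighv1-26: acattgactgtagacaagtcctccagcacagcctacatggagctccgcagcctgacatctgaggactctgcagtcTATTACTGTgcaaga
Ighv1-39: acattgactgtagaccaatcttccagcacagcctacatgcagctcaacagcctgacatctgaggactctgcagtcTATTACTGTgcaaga
Ighv8-12: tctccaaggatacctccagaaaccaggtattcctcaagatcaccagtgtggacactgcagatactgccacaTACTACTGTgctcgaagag
Igkv1-110: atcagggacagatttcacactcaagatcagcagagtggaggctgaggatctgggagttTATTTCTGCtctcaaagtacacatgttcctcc
Igkv15-103: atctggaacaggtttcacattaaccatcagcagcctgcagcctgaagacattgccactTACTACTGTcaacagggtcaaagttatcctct
Iglv1: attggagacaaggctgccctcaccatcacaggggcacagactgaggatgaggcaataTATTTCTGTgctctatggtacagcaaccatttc
The heavy chain genes lie on the minus strand of chromosome 12 at chr12:114288152-114288582 (Ighv3-6), chr12:114788372-114788805 (Ighv1-26), chr12:114914599-114915032 (Ighv1-39) and chr12:115647945-115648387 (Ighv8-12). The kappa genes lie on the plus strand at chr6:68270485-68271267 (Igkv1-110) and chr6:68437440-68437925 (Igkv15-103), and Iglv1 lies on the minus strand at chr16:19085017-19085500. Each span covers the whole gene with its leader and V exons, and the bases shown are exonic. The letters searched were TAT or TAC, then TAT, TAC, TTT or TTC, then TGT or TGC, on the sense strand only. They occurred in the last 90 bases of 156 of the 160 V genes (97.5%) and of 1.27% of all other transcripts of the annotation.

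Reads were 50 bases long, so a read counts for 1 gene alone only where no other gene holds the same 50 bases. Over the Igh members the median share of 50-base windows found in no other gene was 76.8%, with a range of 7.49% to 100%, and over the Igk members it was 69.6%, with a range of 25.7% to 100%. Of the members' estimated counts above 0, 87.0% were not whole numbers (within 0.01), against 47.9% over all genes. Plasma cells also carry somatic mutations in their V regions that the reference sequences do not hold. The leading genes differed in this respect. In Ighv1-26, 51.0% of windows were unique, and over the last 280 bases it matched its closest relative Ighv1-18 at 97.1%, with 8 differences. In Igkv15-103 every window was unique, and its closest relative, Igkv10-96, matched it at only 73.9%. The last 100 bases of both pairs are shown with the differing bases in capitals.
Ighv1-26: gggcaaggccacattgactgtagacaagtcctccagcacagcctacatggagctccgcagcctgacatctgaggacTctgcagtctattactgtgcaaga
Ighv1-18: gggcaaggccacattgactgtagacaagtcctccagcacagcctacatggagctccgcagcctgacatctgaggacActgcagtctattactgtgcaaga
Igkv15-103: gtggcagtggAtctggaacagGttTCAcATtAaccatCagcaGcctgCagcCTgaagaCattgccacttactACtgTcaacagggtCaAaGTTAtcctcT
Igkv10-96: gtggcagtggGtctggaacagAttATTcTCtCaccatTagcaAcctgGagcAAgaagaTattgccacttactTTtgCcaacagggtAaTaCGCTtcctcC
A single base separates the heavy chain pair in this stretch, whereas the kappa pair differs throughout, so the value of Igkv15-103 rests on its own reads and that of Ighv1-26 rests partly on how the authors' quantification divided shared reads.

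The labelled tissue held antibody-secreting cells in every library. Igha made up 99.3%, 99.4% and 99.5% of the heavy chain constant gene counts in the Apc1322T libraries and 97.0%, 97.4% and 98.9% in the ApcMin libraries, without overlap. Jchain, the joining chain of secreted IgA, stood at 265 to 940 CPM (counts scaled to 1000000 per library). Ms4a1, which marks B cells before they become plasma cells, had 3, 5 and 5 counts in Apc1322T and 26, 16 and 8 in ApcMin, and of 7 genes of V gene joining and of the surrogate light chain in precursor B cells, Rag1 and Igll1 were at 0 in every library, Rag2, Dntt, Vpreb1 and Vpreb2 had at most 6 counts in any library, and Vpreb3 had 9 to 54. A count of 0 allows up to 0.0895 to 0.130 CPM at these depths, and this floor covers counting error only.

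**Figure D1:**
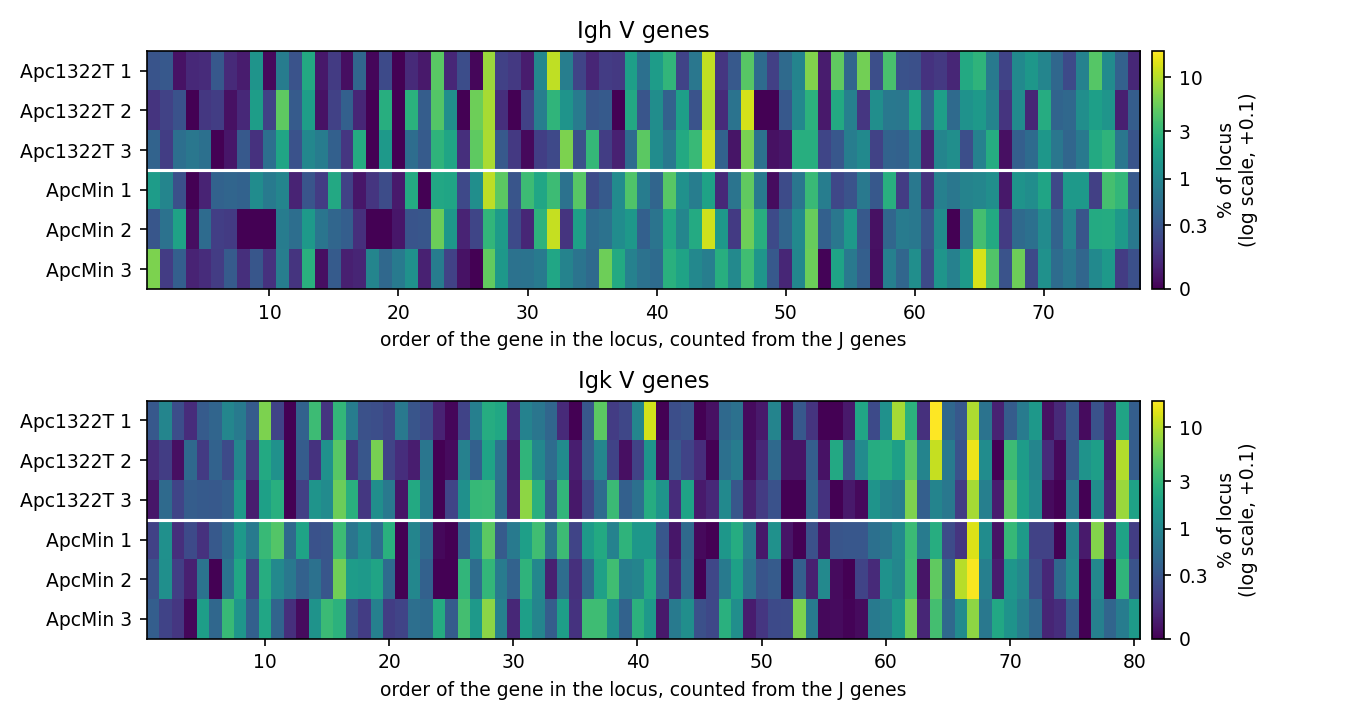
Share of each V gene in the summed V gene level of its locus (per base of exon), as percent on a logarithmic colour scale with 0.1 added, for 77 Igh and 80 Igk genes in order from the J genes and for each of the 6 libraries. Few genes are bright in every library, such as Ighv3-6 and Igkv1-110, and most bright cells belong to 1 or a few libraries.

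The total V gene level did not separate the genotypes. All members together stood at 895, 510 and 644 CPM in the Apc1322T libraries 1, 2 and 3, and at 533, 459 and 1689 CPM in the ApcMin libraries 1, 2 and 3. The ApcMin library 3 stood apart from the other 5, which spanned 459 to 895 CPM, and the constant genes moved with it, from 2449 to 5365 CPM in the others to 9170 CPM there. The means were 683 ± 196 CPM (SD, n = 3) for Apc1322T and 894 ± 690 CPM (SD, n = 3) for ApcMin, with overlapping ranges. Without the ApcMin library 3 the ApcMin mean was 496 CPM, below that of Apc1322T, so the direction rests on that 1 library.

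The ApcMin library 3 was highest in each locus. Igh V genes stood at 372, 204 and 277 CPM in Apc1322T and at 218, 171 and 706 CPM in ApcMin, and Igk V genes at 468, 290 and 332 CPM against 284, 264 and 807 CPM. Light chain V counts per Igh V count lay between 1.33 and 1.69 in the 6 libraries. The lambda genes gave 10.4%, 5.54% and 9.44% of the light chain V counts in Apc1322T, and 9.74%, 8.46% and 17.9% in ApcMin. The genotypes thus overlapped in all 3 loci, and the ApcMin library 3 also had the highest lambda share. Like the Igha share of the heavy chain constant counts, V counts per constant gene count did not overlap, at 0.167, 0.161 and 0.164 in Apc1322T and 0.177, 0.187 and 0.184 in ApcMin.

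**Figure D2:**
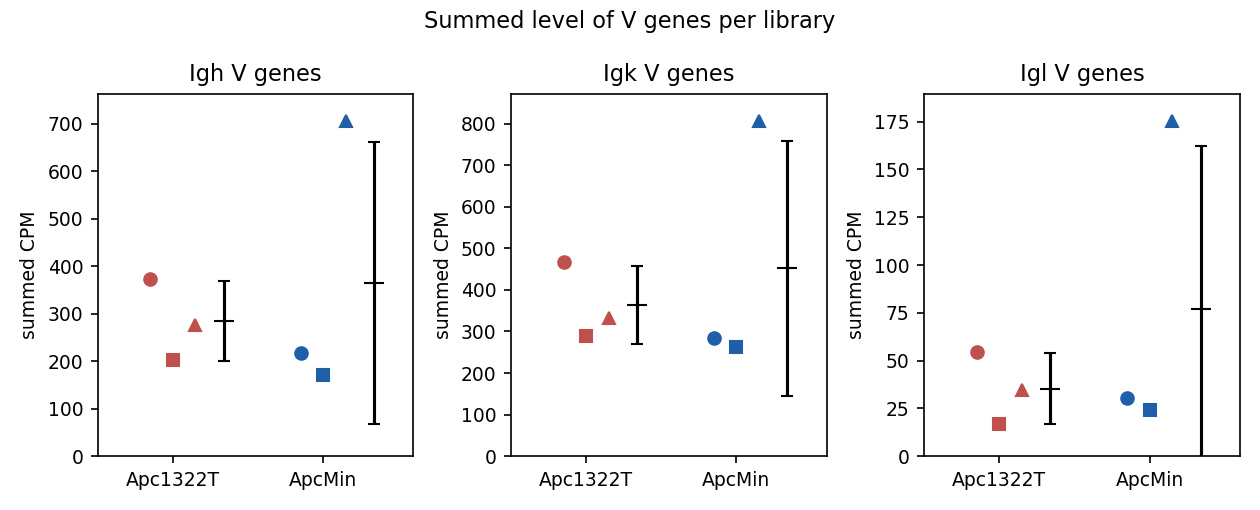
Summed CPM of the V genes of each locus by genotype, with 1 point per library (circle, square and triangle for replicates 1, 2 and 3) and the mean ± SD (n = 3) beside them. The ApcMin library 3 lies above all other libraries in each locus, and for Igl the lower SD limit of ApcMin runs below the axis.

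Igh use was described as the share of each gene in the summed level of its locus, where the level is CPM per kilobase of exon. Ighv3-6, 1 of 4 members of the Ighv3 family, had the highest mean level, with shares of 8.08%, 9.08% and 9.20% in Apc1322T and 10.7%, 2.95% and 5.11% in ApcMin. Ighv1-26 took 11.0%, 9.70% and 12.3% in Apc1322T, and 1.88%, 12.3% and 0.826% in ApcMin. Ighv1-26 was thus the leading gene in the Apc1322T libraries 1 and 3 and in the ApcMin library 2, but a minor one in the remaining ApcMin libraries. Ighv1-39 took 4.59%, 12.7% and 6.26% in Apc1322T and 5.0%, 5.67% and 3.59% in ApcMin, and led in the Apc1322T library 2 alone. Ighv8-12 took 2.83%, 1.55% and 0.876% in Apc1322T and 0.982%, 3.69% and 13.0% in ApcMin, and led in the ApcMin library 3. Ighv6-6 ranged from 0.213% in the Apc1322T library 3 to 11.3% in the ApcMin library 2, with 10.9% in the Apc1322T library 1, and Ighv1-53 kept to 2.52% to 6.68%. The genes that led thus differed within each genotype as well as between them.

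In Igk a single gene led almost everywhere. Igkv1-110 took 9.36%, 15.3% and 8.86% in Apc1322T and 13.5%, 16.8% and 7.37% in ApcMin, and it was the leading kappa gene in 5 of the 6 libraries. Of its 50-base windows 49.1% were unique and 50.3% were shared with Igkv1-117, to which it was 96.8% identical. In the remaining library, Apc1322T 1, Igkv15-103 led with 17.6%, the highest share of any Igh or Igk member in any library. Its shares in the Apc1322T libraries 2 and 3 were 11.2% and 0.943%, and in ApcMin they were 2.44%, 4.95% and 3.70%. The replicates of Apc1322T therefore spanned the whole range seen for this gene, which shares no window with another gene. Igkv4-61 showed the same kind of spread, with 12.5% in the Apc1322T library 1 and 1.36% to 2.40% in the other 5. Igkv10-96 (2.69% to 6.46%), Igkv6-23 (2.69% to 5.73%) and Igkv5-43 (1.95% to 7.26%) were used in every library.

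Lambda use was nearly a matter of 1 gene. Iglv1 took 90.4%, 81.4% and 85.4% of the Igl level in Apc1322T and 83.6%, 85.9% and 79.3% in ApcMin. Iglv2, which was 97.5% identical to Iglv1 over 280 bases, took 8.94% to 20.2%, with the highest share in the ApcMin library 3. Iglv3, which shares no 50-base window with another gene, had 9, 14 and 34 counts in Apc1322T and 29, 10 and 26 in ApcMin. The lambda genes kept their order in all 6 libraries.

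Other V genes were abundant in 1 library and nearly absent elsewhere. Among the Igh members 22 of 77, and among the Igk members 29 of 80, had more than 50% of their share, summed over the libraries, in a single library, and for 7 of these Igh and 11 of these Igk genes it was the ApcMin library 3. Ighv10-3 had 16, 16 and 11 counts in Apc1322T, 26 and 26 in the ApcMin libraries 1 and 2, and 1226 in the ApcMin library 3. Ighv2-2, the member nearest the J genes of Igh, had 28, 5, 28, 119 and 12 counts in the other 5 libraries and 1305 there. Ighv1-74 had 20 to 107 counts in the others and 1144 there. Igkv13-84 had 38, 2 and 0 counts in Apc1322T, 0 and 23 in the ApcMin libraries 1 and 2, and 1442 in the ApcMin library 3. Igkv8-34 had 8, 0, 0, 1 and 0 counts in the other libraries and 566 there, and Igkv2-112 had 0 to 8 counts in the others and 511 there. These 6 genes had the largest ratio of the highest to the next library among members with 500 or more counts, so that their contrast is part of how they were picked. In Igkv2-112 every 50-base window was unique and in Igkv8-34 it was 99.4%, while Igkv13-84 shared 48.3% of its windows with Igkv13-85.

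**Figure D3:**
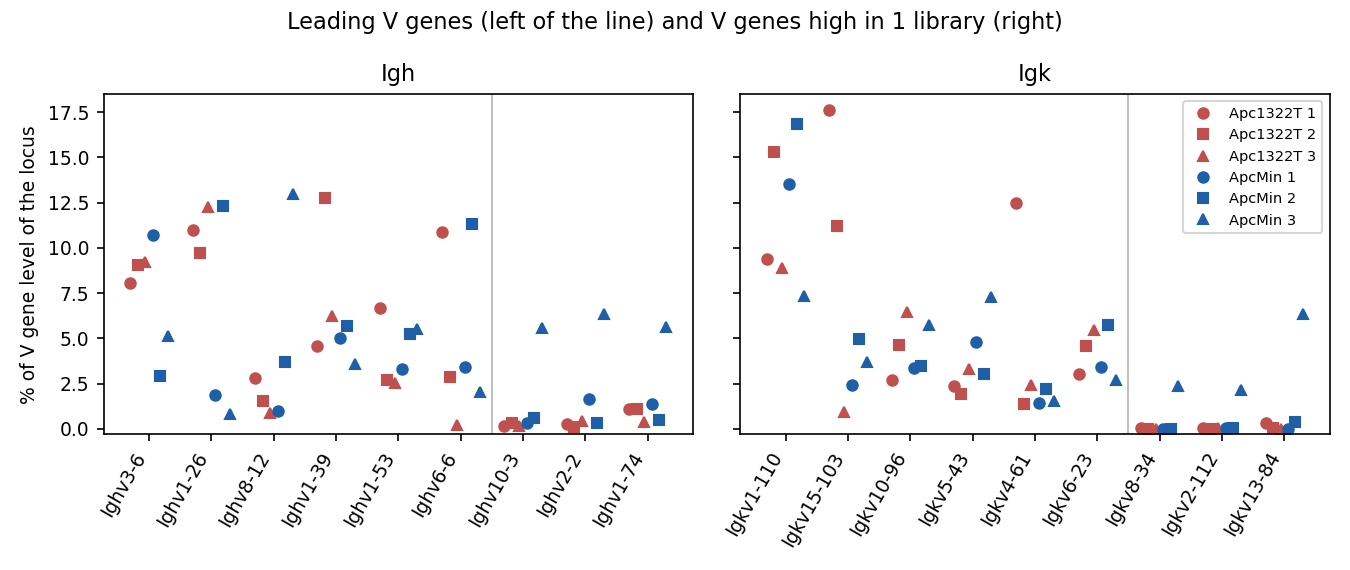
Share of the locus (percent) in each of the 6 libraries for the 6 Igh and 6 Igk genes with the highest mean level (left of the grey line) and for 3 genes per locus with the largest ratio of the highest to the next library (right of it). Red is Apc1322T, blue is ApcMin, and circle, square and triangle are replicates 1, 2 and 3; the 6 genes on the right are high in the ApcMin library 3 alone.

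The sets of 10 leading genes overlapped little between libraries. In Igh, 32 genes were among the leading 10 of at least 1 library, 22 of them in only 1 library, and Ighv1-39 and Ighv3-6 in all 6. In Igk, 28 genes reached the leading 10 of at least 1 library, 15 of them in only 1, and Igkv1-110 and Igkv10-96 in all 6. Libraries of the same genotype were about as far from each other as libraries of different genotypes. The Bray-Curtis distance (0 for identical shares, 1 for no shared gene) was 0.436 ± 0.0563 (SD) over the 6 Igh pairs of the same genotype and 0.462 ± 0.0724 over the 9 pairs of different genotype. For Igk these values were 0.434 ± 0.0747 and 0.446 ± 0.0590. Pairs share libraries and are not independent, so no test was made. The closest Igh pair was of different genotypes, the Apc1322T library 1 and the ApcMin library 2, at 0.326. The closest Igk pair was of the same genotype, the ApcMin libraries 1 and 2, at 0.350.

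Summed to families by the first number of the gene name, the Ighv1 genes led Igh in all 6 libraries. The Ighv1 family, which holds 40 of the 77 Igh members, gave 57.8%, 56.3% and 58.9% of the Igh level in Apc1322T and 54.5%, 60.2% and 52.6% in ApcMin. Smaller families varied more, such as Ighv3 with 3.47% to 16.5%, Ighv6 with 0.374% to 14.1% and Ighv8 with 1.74% to 13.6%. In Igk, 23 members of Igkv4 gave 10.9% to 24.4%, 6 members of Igkv1 gave up to 30.9% (median 20.2%), and 9 members of Igkv6 gave 9.20% to 15.3%. Of 13 Igh and 17 Igk families, 1 in each locus had libraries that did not overlap between genotypes. Both were higher in ApcMin, and 11.0% of all genes tested, in CPM and not as shares, did not overlap in that direction. Igkv5 gave 3.33%, 3.90% and 7.20% in Apc1322T and 9.48%, 7.38% and 12% in ApcMin. Ighv11, known from antibodies of B-1 cells against membrane phospholipid, was at 0.0101%, 0 and 0 in Apc1322T and at 0.168%, 0.0379% and 1.71% in ApcMin. Its 2 members, Ighv11-1 and Ighv11-2, had 199 and 200 counts in the ApcMin library 3, without which neither would have reached the minimum, and 0 to 2 counts each in the ApcMin library 2 and in all Apc1322T libraries, which is under the floor of 3 counts.

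Genes near to and far from the J genes were both in use. The 38 Igh members nearest the J genes, which lie within 1154 kb of them, held 35.4% to 54.0% of the Igh level over the 6 libraries, and the 40 nearest Igk members, within 1284 kb, held 31.3% to 53.2% of the Igk level. All 77 Igh members are transcribed in the orientation of the constant genes. In Igk, where V genes stand in both orientations and join by deletion or by inversion, 27 of 80 members have the orientation of the constant gene, and they held 35.1% to 52.2%. The genotypes overlapped in each of these shares.

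Evenness of Igh use was compared by several measures, of which some overlapped between the genotypes and some did not. The effective number of genes, the exponential of the Shannon entropy of the shares, gives how many equally used genes would have the same diversity. For Igh it was 28.3, 32.3 and 34.6 in Apc1322T and 42.0, 35.4 and 37.5 in ApcMin, so that the genotypes did not overlap, although the gap between the nearest libraries was smaller than the spread within either genotype. The means were 31.8 ± 3.21 and 38.3 ± 3.35 (SD, n = 3 each). The leading 10 Igh genes held 65.2%, 57.1% and 55.7% of the level in Apc1322T and 47.7%, 54.2% and 54.3% in ApcMin, again without overlap. The inverse Simpson index, which weights the leading genes more, was 18.7, 20.0 and 21.8 in Apc1322T and 28.9, 21.3 and 23.3 in ApcMin and overlapped, as did the share of the leading gene, with a mean of 12% in both genotypes. The difference in effective number was smaller than the library spread when only the 44 Igh members with at least 50% of their 31-base words unique were counted (1.68, against 6.56 over all 77), and the genotypes overlapped there and when genes were summed to families (0.531).

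For Igk the same measures overlapped. The effective number was 23.6, 28.4 and 36.1 in Apc1322T and 38.6, 33.0 and 42.3 in ApcMin, and the leading 10 genes held 71.0%, 62.9% and 53.5% against 49.5%, 56.4% and 47.7%. The Apc1322T library 1, with Igkv15-103 and Igkv4-61 at its head, was the least even in both loci, and the ApcMin library 3, the most abundant in V gene reads, was the most even in Igk. V genes had 4133 to 21306 Igh counts and 6380 to 24332 Igk counts per library. The number of members with a count overlapped between the genotypes at equal depth: thinned to 4132 Igh counts, the libraries held 68.7 to 73.1 members in Apc1322T and 71.0 to 74.5 in ApcMin.

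**Figure D4:**
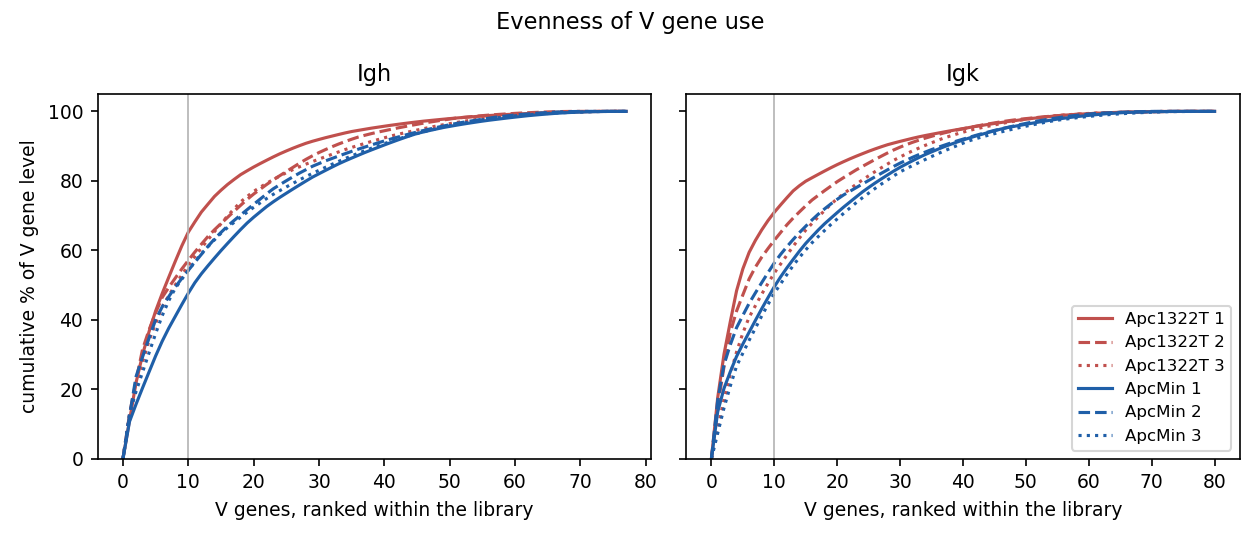
Cumulative percent of the V gene level held by the genes of a library ranked from the most to the least used, for Igh and Igk. Red is Apc1322T and blue is ApcMin, with solid, dashed and dotted lines for replicates 1, 2 and 3, and the grey line marks 10 genes; at 10 genes the Igh curves of Apc1322T (55.7% to 65.2%) lie above those of ApcMin (47.7% to 54.3%).

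The summed B cell and follicle marker levels of the same libraries did not overlap between the genotypes. The summed level of 12 B cell genes was 9.40 to 11.3 CPM in Apc1322T and 20.2 to 22.0 CPM in ApcMin, and that of 8 genes of lymphoid follicles and Peyer's patches was 3.16 to 4.77 CPM against 8.09 to 15.2 CPM. The B cell sum came mostly from Cd79a, Cd79b and Spib, each of which overlapped on TMM-normalised library sizes. Gp2 had the highest ApcMin mean of the follicle genes, at 7.40, 1.24 and 4.64 CPM, against 0.216 to 0.325 CPM in Apc1322T. Of the follicle genes, Cxcl13, a chemokine that draws B cells into follicles, had 10, 5 and 7 counts in Apc1322T and 67, 23 and 48 in ApcMin. Of the 7 B cell genes tested 6 had a higher fitted level in ApcMin and 1 a lower one, Blk and Cd22 without overlap, and of the 5 follicle genes tested 4 were higher and 1 lower, but none passed an adjusted p of 0.01 in edgeR's quasi-likelihood test, with 2 of the 7 B cell and 3 of the 5 follicle genes higher at an unadjusted p under 0.05 (7.49% of all genes) and the same numbers without overlap (11.0% of all genes). By DESeq2 1 follicle gene, Gp2, a receptor of M cells over Peyer's patches, passed (adjusted p = 1.52e-05). Of 8 epithelial genes all 8 had a lower fitted level in ApcMin, with a median log2 fold change of −0.37. On TMM-normalised library sizes 5 of them, Epcam, Cdh1, Krt8, Krt19 and Cdx2, did not overlap (9.96% of all genes). In CPM on the plain library total Krt8, Krt19 and Cdx2 overlapped, with 4343 CPM as the lowest Apc1322T and 4401 CPM as the highest ApcMin value for Krt8. None of the 8 passed the adjusted p in edgeR or in DESeq2. In edgeR Epcam, Cdh1, Krt8, Krt20 and Cdx2 were lower at an unadjusted p under 0.05 (7.6% of all genes). The summed level of the epithelial genes overlapped, at 14075 to 16003 CPM in Apc1322T and 11994 to 14131 CPM in ApcMin. The summed level of the 12 plasma cell genes overlapped, at 1300 to 1726 CPM and 1370 to 2204 CPM. Much of that sum came from Sdc1, Txndc5 and Xbp1, at 313 to 497, 328 to 473 and 196 to 244 CPM. Jchain, Mzb1 and Pou2af1 rose more in the ApcMin library 3, to 940, 11.6 and 16.9 CPM. Elsewhere they stood at 265 to 493, 3.55 to 6.54 and 4.32 to 8.31 CPM. The summed level of the 10 T cell genes also overlapped, at 22.0 to 51.9 CPM and 29.8 to 38.4 CPM. The 8 genes of germinal centres and Ig diversification overlapped too, at 58.5 to 60.4 CPM and 57.2 to 68.7 CPM. Ighm, the constant gene of IgM, stood at 6.03, 4.76 and 4.66 CPM in Apc1322T and at 46.6, 10.2 and 5.67 CPM in ApcMin. Whether the B cell, follicle and epithelial content has a part in the evenness of the Igh genes was not tested.

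**Figure D5:**
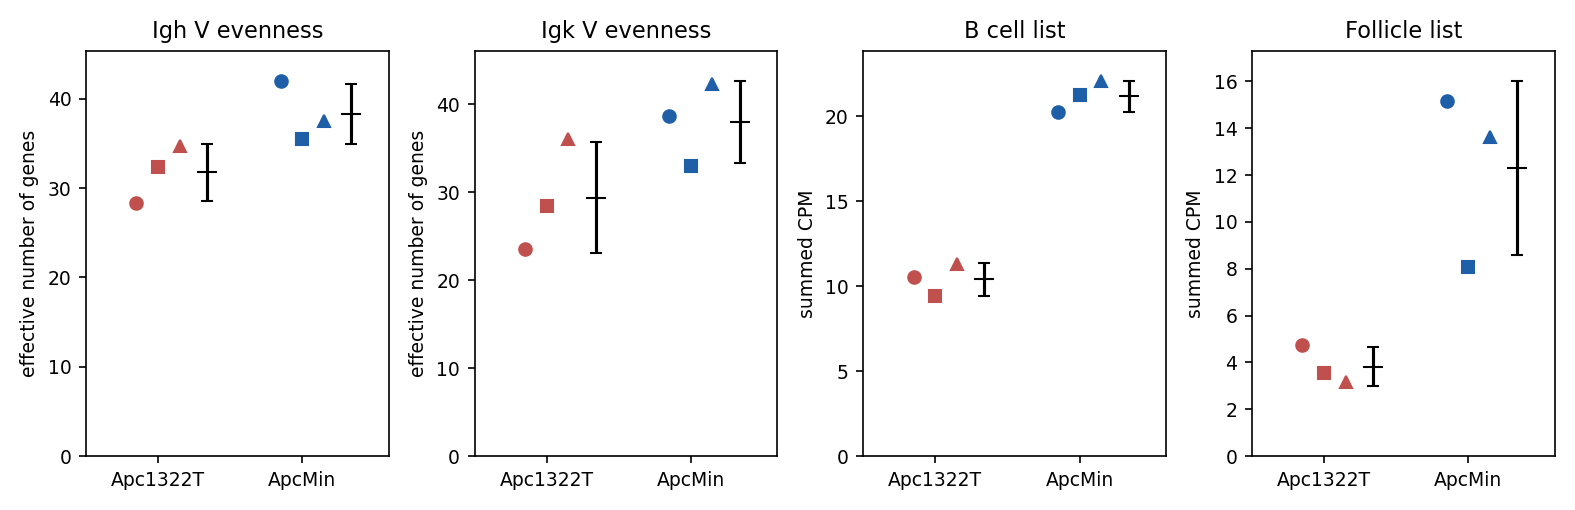
Effective number of V genes for Igh and Igk, and summed CPM of the B cell and follicle gene lists, by genotype, with 1 point per library (circle, square and triangle for replicates 1, 2 and 3) and the mean ± SD (n = 3). The genotypes do not overlap for Igh, the B cell list or the follicle list, and they overlap for Igk.

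Gene by gene, no V gene passed the test between the genotypes. Of the 160 members 138 passed the filter on low counts, and the quasi-likelihood test of edgeR called 0 of them at a Benjamini-Hochberg adjusted p under 0.01, as it called 0.0% of the 16536 genes tested. At an unadjusted p under 0.05 it gave 15 members higher in ApcMin (10.9%), against 7.49% of all genes, and 5 lower (3.62%), against 7.6% of all genes. Without the ApcMin library 3 this split turned to 9 higher and 16 lower. The share over all genes was not worked out for that fit, so these counts show only the turn in direction. The median log2 fold change of ApcMin over Apc1322T was 0.34 over the members and 0.02 over all genes. Without the ApcMin library 3 the median over the members was −0.51, with 49 of 141 members higher and 92 lower, so this direction rests on 1 library. By DESeq2 5 of the 143 members that it gave an adjusted p passed 0.01 (3.50%), against 1.11% of all genes. Some of these 5, and some of the 15 higher members in edgeR, reached the minimum summed count only with their ApcMin counts. The comparisons of these shares with all genes are thus partly fixed by how members were chosen.

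The V genes varied between libraries far more than other genes did. The median biological coefficient of variation was 0.785 over the members tested and 0.196 over all genes. The highest library was more than 3 times the median library for 85 of 138 members (61.6%), against 3.47% of all genes. The genes were not matched for level. The ApcMin library 3, where the V genes rose together, was the highest for 63 members (45.7%), against 22.3% of all genes. The libraries of the genotypes did not overlap for 11 members higher in ApcMin (7.97%), where 11.0% of all genes did so, and for 2 members lower in ApcMin (1.45%), where 9.96% of all genes did so. Both shares of the members lay below those of all genes. The 11 higher ones were Ighv1-4, Ighv1-7, Ighv1-78, Ighv6-3 and Ighv9-4 of the heavy chain and Igkv4-58, Igkv4-72, Igkv4-74, Igkv5-45, Igkv8-18 and Igkv9-124 of kappa. The 2 lower ones were Ighv1-26 and Igkv1-135. Of the higher ones, Ighv1-7, Ighv9-4, Igkv4-74, Igkv5-45 and Igkv8-18 became members only with their ApcMin counts. As shares of the locus, 10 members did not overlap in the higher direction and 2 in the lower.

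The members with the smallest p values in each direction are given in CPM on TMM-normalised library sizes. Ighv9-4 stood at 0.624, 0.238 and 0.919 CPM in Apc1322T and at 9.38, 2.56 and 9.61 CPM in ApcMin, a log2 fold change of 3.58 ± 0.68 (SE) and an adjusted p of 0.257 by edgeR. Ighv1-4 stood at 0.660, 1.66 and 0.744 CPM against 9.16, 2.87 and 4.17 CPM, with a log2 fold change of 2.41 ± 0.57. Both heavy chain genes were higher in all 3 ApcMin libraries than in any Apc1322T library, and 81.1% and 66.2% of their 50-base windows were unique. Igkv8-18 had no count in the Apc1322T libraries and 49, 47 and 26 counts in ApcMin. It reached the summed count of 50 through ApcMin alone, and Ighv9-4 and Igkv4-74 also reached it only with their ApcMin counts. So did Ighv1-7 and Igkv5-45 of the members without overlap, and Ighv10-3 and Ighv14-1 of those higher at an unadjusted p under 0.05. The contrasts of these genes, and their DESeq2 results, are thus partly fixed by how members were chosen. Igkv4-74 stood at 0.0734, 0.0475 and 0.219 CPM against 2.40, 1.69 and 0.411 CPM, and it shared 29.3% of its windows with Igkv4-61, the gene that was high in the Apc1322T library 1. Ighv9-4 and Ighv1-4 were among the leading 10 Igh genes of 1 library each, with highest shares of 4.72% and 4.61%, while Igkv8-18 and Igkv4-74 stayed below 1% of Igk in every library.

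In the other direction, Igkv1-135 stood at 9.83, 33.0 and 30.5 CPM in Apc1322T and at 5.42, 7.55 and 6.35 CPM in ApcMin, a log2 fold change of −1.92 ± 0.46 (SE) and an adjusted p of 0.262 by edgeR. Ighv1-26 stood at 39.9, 21.1 and 35.4 CPM against 3.74, 19.5 and 5.34 CPM, with a log2 fold change of −1.77 ± 0.65. Neither overlapped between genotypes, but for Ighv1-26 the ApcMin library 2 lay close to the lowest Apc1322T library. Its closest relative Ighv1-18, 97.1% identical over 280 bases, had a log2 fold change of 1.09 in the other direction, with overlap. Whether the non-overlap of Ighv1-26 depends on how their shared reads were divided was not tested. Ighv3-1, at 1.61, 0.143 and 6.74 CPM against 0.0838, 0.157 and 0.443 CPM, and Ighv9-3, at 16.9, 9.55 and 8.19 CPM against 4.27, 8.65 and 5.03 CPM, overlapped between the genotypes. Ighv3-1 reached the minimum only with its Apc1322T counts, and so did Igkv3-5, another member lower at an unadjusted p under 0.05. DESeq2 passed Ighv9-4, Igkv8-18, Igkv4-74 and Ighv1-4, higher in ApcMin, and Igkv1-135, lower.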

How the data were processed

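RNA was extracted from excised, flash-frozen adenomas and sequenced as single-end stranded 50-base reads. The authors assigned them to GRCm38 transcripts with Salmon 0.9.1, imported the output with tximport 1.6.0 and tested genes with DESeq2 1.18.1, and they deposited estimated counts per gene (expected counts, not normalised). Salmon divides a read that matches several genes between them by estimation, so counts of near-identical V genes are uncertain.

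Gene types, lengths and transcript sequences were taken from GENCODE M21 on GRCm38, matched by Ensembl identifier for 34652 of 34866 genes. Members and gene lists were chosen with earlier results of these data known. Shares are CPM per kilobase of exon over the sum of the locus. Sequence overlap was counted as exact 50-base windows and 31-base words shared with transcripts of any other gene.

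Counts were rounded and filtered with filterByExpr (138 of 160 members kept), normalised with TMM and the genotypes compared in edgeR 4.0.16 (R 4.3.3; quasi-likelihood F test, robust) over all 16536 genes, at an adjusted p of 0.01, which is the authors' threshold. The code was checked on simulated counts. Shares, evenness and distances were given without a test, and groups are called non-overlapping where every library of 1 genotype lies above every library of the other. Genes named were the 6 of highest mean level per locus and the highest in each library, all lambda genes, the 4 of smallest p in each direction and the 3 per locus with the largest ratio of the highest to the next library among those with 500 or more counts, plus genes of the marker lists. Alternatives were DESeq2 1.42.0, other scalings and filters, other ways of counting evenness and leaving out each library. The same replicate number did not pair the libraries: same-numbered libraries correlated at −0.0139, 0.164 and −0.286 in their deviations from the genotype means. The count table has 6 value columns, all mapped to samples by title.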

Additional observations from a re-analysis of the deposited data

Results flagged for a closer look

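Counts of V pseudogenes, which no comparison used, were present in every library: 380, 121 and 102 in the Apc1322T libraries 1, 2 and 3, and 155, 125 and 590 in the ApcMin libraries 1, 2 and 3, where a count of 0 allows up to 3. They made up 0.635% to 1.56% of the V gene counts. Of 155 pseudogenes 4 reached a summed count of 50, and Ighv1-62 alone held 240, 67, 34, 15, 16 and 269 counts in the 6 libraries in that order. Only 31.3% of the 31-base words of Ighv1-62 were in no other gene, and whether its counts are reads of functional V genes was not tested. Groups of 3 libraries were not tested for single outlying libraries.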

How the results depend on the processing

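DESeq2 called 194 genes (1.11%) and 5 V genes (3.50%) where edgeR called 0 of both at an adjusted p under 0.01. It gave 31 V genes at an unadjusted p under 0.05 in place of 20. Some of the 5 V genes became members only with their ApcMin counts, so the 3.50% is partly fixed by how members were chosen. Without a filter on low counts 1 gene was called, and at an adjusted p under 0.05 it was 1 gene, neither of them a V gene. With a replicate block 0 genes and 0 V genes were called and 20 V genes had an unadjusted p under 0.05, and the block changed no call. Leaving out each library in turn gave 0 to 1 genes called, 0 V genes called and 16 to 25 V genes at an unadjusted p under 0.05, with 9 higher and 16 lower without the ApcMin library 3. It moved the median log2 fold change of the V genes from −0.51 (without the ApcMin library 3) to 0.68 (without the ApcMin library 2), and the log2 ratio of the summed V level from −0.46 to 0.70 under the same omissions. The difference in effective number fell to 0.531 for Igh and 0.825 for Igk when genes were summed to families, which leaves 13 and 17 units, and to 1.68 for Igh with only the more unique genes (4.60 for Igk). At a summed count of 500 or more it was 3.90 for Igh and 5.60 for Igk, while a minimum of 10 or counts without division by length moved it little (6.66 to 6.78 for Igh, 8.62 to 8.73 for Igk). The difference in effective number lay between 4.72 and 8.0 for Igh and between 5.74 and 12 for Igk when each library was left out, and the direction did not turn. Expression was read from 4133 to 21306 Igh V counts a library, which limits the minor genes most, since 28 Igh and 30 Igk members had 3 counts or fewer in at least 1 library.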
